A study of Mus musculus with 6 samples.

Results

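The MYC-MAX-MXD network is a set of basic helix-loop-helix leucine zipper transcription factors that share a small dimerization partner. Its 10 members here were taken by gene symbol from the table of gene counts, and all 10 were found among its 51912 genes: the MYC family (Myc, Mycn and Mycl), the antagonists that compete with it for MAX (Mxd1, Mxd3, Mxd4, Mxi1 and Mnt), and the partners Max and Mlx. The choice by symbol sets no threshold on counts. MYC proteins bind DNA as dimers with MAX at E-boxes and favour transcription, above all of genes for ribosome production, metabolism and cell division. The MXD proteins, MXI1 and MNT pair with MAX on the same sites and recruit the SIN3 corepressor with its histone deacetylases. MLX is a second partner that pairs with some MXD proteins, with MNT and with the nutrient-responsive MONDO proteins. In mouse embryonic stem cells Myc and Mycn are known to sustain growth and proliferation and can stand in for each other in part.

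The cells were of R1, an established mouse embryonic stem cell line. They had been kept in the naive state in 2iLIF medium (inhibitors of MEK and GSK3 with the cytokine LIF) and were then moved to serum-free N2B27 that held 100 ng/ml FGF2. Messenger RNA was read from 3 replicates after 24 h and 3 after 48 h, and both groups carry the same medium change and the same dose. Libraries from before the change, or from N2B27 without FGF2, were not analysed here, so FGF2, the loss of 2iLIF and time in culture cannot be told apart.

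The libraries held 19574969 to 23133148 estimated counts. The labelled cell type was checked on marker lists: the 5 general pluripotency genes summed to 2196 to 2220 CPM (counts scaled to a common library total) at 24 h and 2560 to 2612 at 48 h. Of these, Lin28a (192 to 563 CPM on average), Utf1 and Sall4 rose, while Sox2 (403 to 312 CPM) and Pou5f1 (log2 fold change -0.07) fell. All 9 naive genes fell, from a sum of 3037 to 3216 CPM to a sum of 1015 to 1070, and all 6 formative or primed genes rose, from 392 to 453 CPM to between 2722 and 2789. Markers of feeder fibroblasts summed to 1.22 to 1.57 CPM at 24 h and 1.43 to 1.98 at 48 h, with Postn and Lum at 0 in every library. Within that list Col1a1 fell, from 1.03 to 0.304 CPM on average, while Dcn had 0 counts in all 24 h libraries and 23, 25 and 32 at 48 h. The primitive endoderm, trophoblast and primitive streak lists summed to at most 7.81, 7.04 and 18.5 CPM. The neural list moved from 127 to 137 CPM to between 145 and 157, with opposite moves inside it. Sox1, Pax6 and Zic1 rose 2.49-, 2.94- and 3.64-fold, with Zic1 near the floor, at 0.425 CPM at 24 h and 1.55 at 48 h on average. Tubb3 and Nes, which were more abundant at 24 h, fell (log2 fold changes -0.53 and -0.19). In bulk samples a change in the share of cells and a change in RNA per cell cannot be told apart, and the part of these shifts in the results below was not tested.

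Across all 14889 genes with enough counts to test, 62.8% changed between the time points in edgeR's quasi-likelihood test (adjusted p under 0.05), 30.9% upward and 31.9% downward. All 10 network members passed the filter on low counts and were tested. Of them, 8 changed, which were 6 higher and 2 lower at 48 h. For those 8 members the 24 h and 48 h libraries did not overlap, as was true of 66.9% of all tested genes. The share of members called is thus not far from that of all genes, and the description below turns on the sizes and directions. The log2 ratio of 48 h to 24 h is the fold change on the log2 scale. Its median over the members was 0.20, against -0.01 for all tested genes. None of the members had fractional counts in any library, which gives no sign of reads split between Myc, Mycn and Mycl or with other genes.

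**Figure D1:**
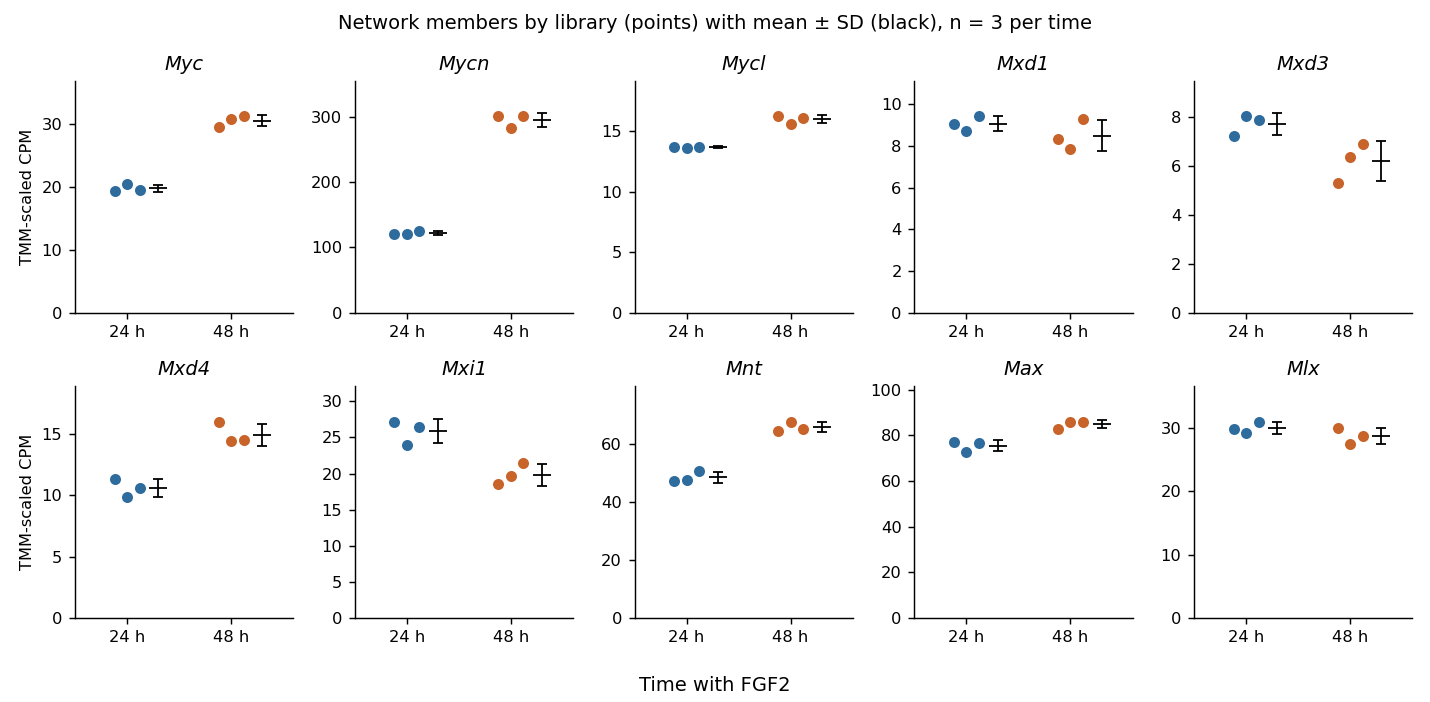
TMM-scaled CPM (y axes, each from 0) of the 10 members in the 3 libraries at 24 h and the 3 at 48 h, with mean and SD in black. Mycn is the most abundant and moves from 120 to 125 CPM up to 283 to 301 CPM, while the points of Mxd1 and Mlx overlap between the times.

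All 3 MYC family genes rose between 24 h and 48 h, and Mycn rose most. Mycn (ENSMUSG00000037169) encodes N-MYC, the family member known for its role in embryonic and neural progenitors. It stood at 121, 120 and 125 CPM in the 24 h libraries and at 301, 283 and 301 CPM in the 48 h libraries. Every 48 h library was above every 24 h library by a wide margin. The mean moved from 122 ± 2.64 to 295 ± 10.5 CPM (SD, n = 3), which is 2.41-fold, with a log2 ratio of 1.27 ± 0.03 (adjusted p = 7.47e-16, ± here being the standard error, as in all log2 ratios below). That fold change was higher than those of 96.9% of all tested genes.

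Myc (ENSMUSG00000022346), the founding member, stood at 19.4, 20.4 and 19.5 CPM at 24 h and at 29.5, 30.8 and 31.2 CPM at 48 h. The groups did not overlap, and the replicates of each time lay close together. The rise was 1.54-fold, and the log2 ratio 0.62 ± 0.05 (adjusted p = 2.48e-08). Mycl (ENSMUSG00000028654) encodes L-MYC, the third and least studied of the family. It was at 13.7, 13.6 and 13.7 CPM at 24 h and at 16.2, 15.6 and 16.1 CPM at 48 h. Its rise was small but larger than the spread between replicates, with a log2 ratio of 0.23 ± 0.07 (adjusted p = 0.00837). The 95% confidence intervals of the log2 ratios were 1.21 to 1.33 for Mycn, 0.51 to 0.74 for Myc and 0.08 to 0.37 for Mycl, and they do not overlap.

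**Figure D2:**
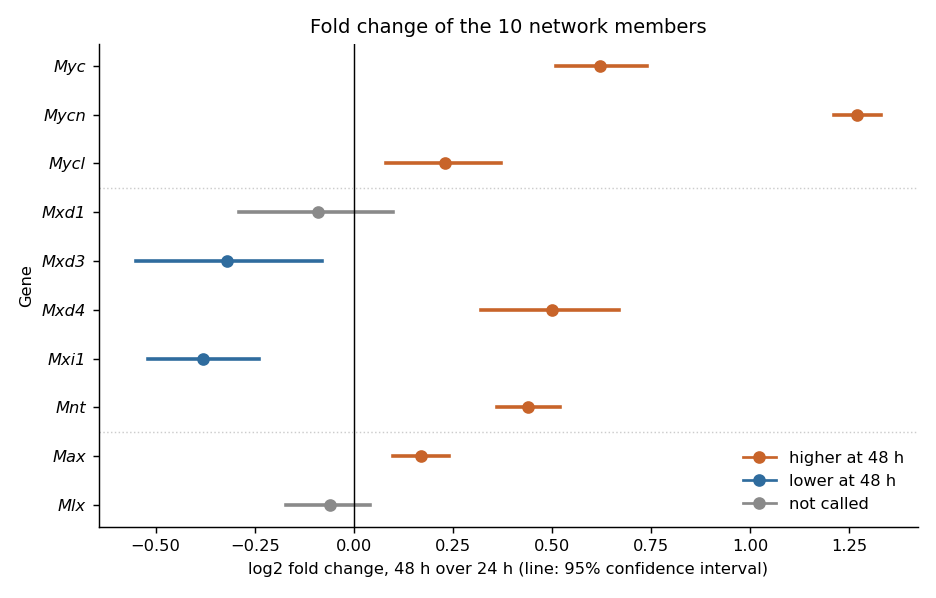
log2 fold change of each member at 48 h over 24 h (x axis) with its 95% confidence interval (lines); orange is higher, blue lower and grey not called at an adjusted p under 0.05, and dotted lines separate the MYC family, the antagonists and the partners. Mycn, at 1.27, lies apart from the other 9 members, which lie between -0.38 and 0.62.

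Levels of different genes were compared as CPM per kilobase of exon, with the summed exon length of each gene in GENCODE M21. On that scale Mycn was the most abundant member at both times, at 37.1 CPM per kb at 24 h and 89.4 at 48 h. Max followed, with 20.9 and 23.6 CPM per kb. At 24 h the order then ran Mlx (15.0), Mnt (10.5), Myc (7.28), Mxi1 (3.79), Mycl (3.38), Mxd3 (3.25), Mxd1 (1.28) and Mxd4 (1.25 CPM per kb). Mycl and Mxd3 overlapped between libraries, as did Mxd1 and Mxd4. At 48 h the order ran Mlx (14.4), Mnt (14.2), Myc (11.2), Mycl (3.96), Mxi1 (2.91), Mxd3 (2.61), Mxd4 (1.76) and Mxd1 (1.20 CPM per kb). There the levels of Mlx and Mnt overlapped, and so did those of Mxi1 and Mxd3. Mycl and Mxi1 thus stood in the opposite order at the later time on this scale. Without division by length Mxi1 was above Mycl at both times, at 25.9 against 13.7 CPM at 24 h and 19.8 against 16.0 CPM at 48 h. Other ranks depend on the length as well. Without that division Mnt was above Mlx, at 48.4 against 30.0 CPM at 24 h and 65.6 against 28.7 CPM at 48 h. Mxd3 was then the lowest member at both times, at 7.7 and 6.18 CPM.

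Mycn held most of the MYC family's transcripts at both times, and its share grew. Of the summed CPM per kb of the 3 genes, Mycn made up 77.7%, 77.1% and 78.2% in the 24 h libraries and 86.0%, 84.9% and 85.5% in the 48 h libraries. The share of Myc was 15.1%, 15.8% and 14.8% at 24 h and 10.2%, 11.2% and 10.7% at 48 h. Although its own level rose, Myc made up a smaller part of the family at 48 h in every library. The share of Mycl was 7.08% ± 0.08 (SD, n = 3) at 24 h and 3.79% ± 0.045 at 48 h. The ratio of Mycn to Myc was 5.15, 4.87 and 5.30 in the 24 h libraries and 8.41, 7.57 and 7.96 in the 48 h libraries. The summed level of the family moved from 47.8 ± 0.72 to 105 ± 3.19 CPM per kb, and Mycn accounted for 92.1% of that gain, Myc for 6.92% and Mycl for 1.02%. These shares are descriptions of the libraries and carry no test.

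**Figure D3:**
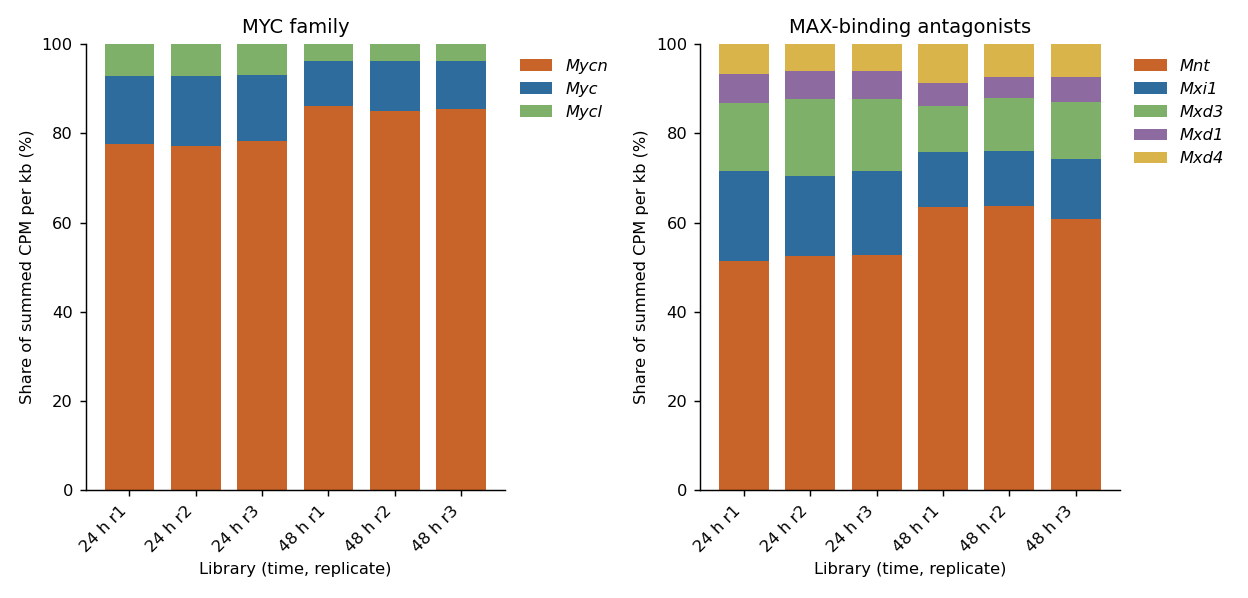
Share of each gene in the summed CPM per kb of the MYC family (left) and of the MAX-binding antagonists (right), in percent (y axes), for each of the 6 libraries (x axes). Mycn takes 77.1% to 78.2% of the family at 24 h and 84.9% to 86.0% at 48 h, and Mnt takes 51.4% to 52.8% of the antagonists at 24 h and 60.7% to 63.6% at 48 h.

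The antagonists divided by direction: Mnt and Mxd4 rose, Mxi1 and Mxd3 fell, and Mxd1 did not pass the test. Mnt (ENSMUSG00000000282), a broadly expressed repressor that is the usual counterweight to MYC in proliferating cells, stood at 47.2, 47.3 and 50.6 CPM at 24 h and at 64.4, 67.6 and 65.0 CPM at 48 h. The groups were well separated. Its log2 ratio was 0.44 ± 0.04 (adjusted p = 4.49e-08). Mxd4 (ENSMUSG00000037235), an MXD protein, was at 11.3, 9.86 and 10.6 CPM at 24 h and at 16.0, 14.4 and 14.5 CPM at 48 h. It rose in all 3 libraries beyond the range of 24 h, with a log2 ratio of 0.50 ± 0.08 (adjusted p = 5.72e-05).

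Mxi1 (ENSMUSG00000025025), a MAX-binding repressor also called MXD2, was at 27.2, 24.0 and 26.4 CPM at 24 h and at 18.5, 19.7 and 21.4 CPM at 48 h. All 48 h libraries were below all 24 h libraries. Its level fell by 23.3%, a log2 ratio of -0.38 ± 0.07 (adjusted p = 0.000107). Mxd3 (ENSMUSG00000021485), which unlike most of its relatives is known to be expressed in dividing cells, was at 7.21, 8.01 and 7.88 CPM at 24 h and at 5.29, 6.35 and 6.90 CPM at 48 h. The highest 48 h library lay just under the lowest 24 h library. Its log2 ratio was -0.32 ± 0.11 (adjusted p = 0.0193), and the call was lost when 24 h replicate 2 (adjusted p = 0.0603), 24 h replicate 3 (0.0529) or 48 h replicate 1 (0.108) was left out and with DESeq2 (0.0842), with a range of 0.00662 to 0.108 over the alternatives. Mxd1 (ENSMUSG00000001156), the first MXD protein described and one linked to exit from the cell cycle, was at 9.06, 8.69 and 9.41 CPM at 24 h and at 8.33, 7.86 and 9.29 CPM at 48 h. The groups overlapped. Its log2 ratio was -0.09, with a 95% confidence interval from -0.29 to 0.10 (adjusted p = 0.399).

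The summed level of the antagonists differed less between the times than that of the MYC family, 1.13-fold against 2.19-fold. It was 19.9, 19.5 and 20.7 CPM per kb in the 24 h libraries and 21.9, 23.0 and 23.1 in the 48 h libraries. The ratio of the summed antagonists to the summed MYC family was 0.420, 0.411 and 0.426 in the 24 h libraries and 0.207, 0.228 and 0.216 in the 48 h libraries. The groups did not overlap, and the ratio at 48 h was 0.518 of that at 24 h. The sum covers the listed antagonists only and not Mga, another MAX partner that represses genes and is described below. Mga alone stood above that sum at both times, at 29.0 CPM per kb at 24 h and 35.3 at 48 h on average. Within the antagonists, the share of Mnt grew from 52.2% ± 0.72 to 62.6% ± 1.61. Mxd4 went from 6.23% ± 0.42 to 7.79% ± 0.70. The shares of Mxi1 (18.9% to 12.8%), Mxd3 (16.2% to 11.5%) and Mxd1 (6.39% to 5.30%) were smaller at 48 h. The sizes depend on the length used: without division by length, the ratio of antagonists to the family was 0.652 at 24 h and 0.338 at 48 h, the share of Mxd3 7.59% and 5.36%, and that of Mxd4 10.4% and 13.0%. With the longest transcript as length, the share of Mxd4 was 9.40% and 12.1%. The direction between the times was the same in each. These are levels of messenger RNA, and the files hold no measure of the proteins or of their dimers.

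Max (ENSMUSG00000059436), the partner that every MYC protein needs to bind DNA, rose slightly, from 77.2, 72.5 and 76.4 CPM at 24 h to 82.8, 86.0 and 85.7 CPM at 48 h. The groups did not overlap, and the log2 ratio was 0.17 ± 0.03 (adjusted p = 0.000315). Per kilobase, the ratio of Max to the summed MYC family was 0.438 ± 0.014 at 24 h and 0.225 ± 0.010 at 48 h (SD, n = 3). Its size depends on the length used. The exons of Max sum to 3598 bases and its longest transcript has 1942, and the ratio was computed with the summed length only. Mlx (ENSMUSG00000017801) was at 29.8, 29.2 and 31.0 CPM at 24 h and at 30.0, 27.5 and 28.7 CPM at 48 h, and the groups overlapped. Its log2 ratio was -0.06, with a 95% confidence interval from -0.17 to 0.04 (adjusted p = 0.273). When scaled by library size alone, which moved the median of all tested genes from -0.01 to -0.07, Mlx was at -0.12 and passed (adjusted p = 0.0393), with a range of adjusted p from 0.0393 to 0.641 over the alternatives.

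The members are scattered over the genome (GRCm38, GENCODE M21). Mycn (chromosome 12, 12936093 to 12941914, minus strand) and Max (76937269 to 76962201, minus strand) share chromosome 12, far apart, and Mnt (74830920 to 74845725) and Mlx (101087277 to 101092207) lie on the plus strand of chromosome 11. Myc is on chromosome 15 (61985391 to 61990374) and Mycl on chromosome 4 (122995652 to 123002485), both on the plus strand. Exons of Mxd3, Mxd4, Mxi1 and Mlx overlap exons of a gene on the opposite strand, which for Mxd3 is Prelid1 and for Mlx is Psmc3ip. Whether reads were counted by strand is not given in the sources used here, so reads of those partners could be included.

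Promoter windows, which run from 250 bases before to 50 after a gene's start, were taken from RefSeq (GRCm38.p6) and matched 9 of the 10 members, all but Myc, with 11 windows. They were searched on both strands for CACGTG, the E-box that MYC-MAX and MXD-MAX dimers bind, and for TTTGGCGC, a form of the site bound by E2F cell-cycle factors, both chosen after the sequences had been seen. The E-box was in the windows of 4 members, Max, Mnt, Mxd4 and Mlx, and in 7.15% of all 32851 windows in the table. TTTGGCGC was, among the members, in the window of Mycn only, with 2 copies that begin 183 and 168 bases before the start, and in 0.514% of all windows. These are matches of letters and not evidence of binding. The stretch of the Mycn window that lies upstream of all annotated exons (chr12:12941915-12942086, minus strand) is shown because Mycn moved most, with both TTTGGCGC copies in capitals.
Mycn: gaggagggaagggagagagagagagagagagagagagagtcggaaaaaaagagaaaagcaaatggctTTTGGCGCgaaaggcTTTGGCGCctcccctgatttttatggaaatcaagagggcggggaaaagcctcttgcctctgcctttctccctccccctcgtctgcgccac

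The corresponding stretches of the antagonists that rose, Mnt (chr11:74830674-74830919, plus strand) and Mxd4 (chr5:34187721-34187960, minus strand), are shown because both carry an E-box, the site their own proteins bind. The E-box is in capitals and begins 123 bases before the start in Mnt and 219 in Mxd4.
Mnt: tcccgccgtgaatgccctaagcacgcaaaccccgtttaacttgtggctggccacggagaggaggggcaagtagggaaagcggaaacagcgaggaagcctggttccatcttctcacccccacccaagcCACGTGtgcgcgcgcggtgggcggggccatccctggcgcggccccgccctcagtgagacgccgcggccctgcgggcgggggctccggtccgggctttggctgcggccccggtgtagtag
Mxd4: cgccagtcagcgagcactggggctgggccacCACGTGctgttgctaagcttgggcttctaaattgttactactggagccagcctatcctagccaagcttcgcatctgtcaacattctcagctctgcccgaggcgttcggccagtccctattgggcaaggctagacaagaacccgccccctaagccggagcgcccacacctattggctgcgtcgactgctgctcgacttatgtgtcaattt

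The partners carry their E-box close to the start, 3 bases before it in Max (chr12:76962236-76962261, minus strand) and 40 in Mlx (chr11:101087240-101087265, plus strand), and the site is shown with 10 bases on each side.
Max: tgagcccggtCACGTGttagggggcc
Mlx: tgggttggatCACGTGactgagcctc

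Other genes that bind MAX or MLX, or lie beside the members, were followed next. Mga, a very large MAX partner that represses germline genes, rose from 444 ± 9.01 to 542 ± 14.1 CPM (SD, n = 3; log2 ratio 0.29, adjusted p = 5.11e-09). Mlxip, which encodes MONDOA, rose by 0.32 on the log2 scale (adjusted p = 1.73e-06), and Mlxipl, which encodes its relative ChREBP, fell from 6.02 ± 0.97 to 4.29 ± 0.16 CPM (log2 ratio -0.49, adjusted p = 0.00342). Pvt1, a non-coding gene beside Myc, was lower at 48 h while Myc was higher (log2 ratio -0.28, adjusted p = 0.0107), and its counts were fractional in 4 libraries. It missed the threshold with DESeq2 (adjusted p = 0.0712). Bmyc, a rodent gene related to Myc, was at 6.45 ± 0.52 and 6.51 ± 0.48 CPM (adjusted p = 0.897), and Mycs, an intronless relative, had 1 count in all 6 libraries together and could not be tested.

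Lists of genes that MYC is known to act on were then described by their counts. They were drawn up from general knowledge, with earlier results of these data known. Of the 49 target genes in 3 lists, all were tested, 42 rose (85.7%) and 6 fell (12.2%), where 30.9% of all tested genes rose. Abundant genes rose more often than all tested genes: of the 4302 genes that averaged 50 CPM or more, a limit chosen after seeing the data, 49.3% rose and 29.1% fell. The median log2 ratio of the 49 genes was 0.27, against 0.06 for those abundant genes. Across all alternatives 39 to 42 of the 49 rose, with the lowest count under scaling by library size alone. Counts were fractional for 21 of the 49 in at least 1 library, so part of their reads was divided with similar genes.

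The nucleolar targets, which serve ribosome production, moved nearly as a block. Of these 18 genes, 17 rose, with a median log2 ratio of 0.31, and Ubtf, a factor for transcription of ribosomal RNA genes, fell slightly (-0.09, adjusted p = 0.000357). Gnl3, which encodes nucleostemin, rose most, from 166 ± 8.57 to 243 ± 4.97 CPM (SD, n = 3; log2 ratio 0.55, adjusted p = 1.09e-10). Nolc1, Ddx21 and Npm1, which act in ribosome assembly in the nucleolus, rose by 0.54, 0.49 and 0.47. The counts of Npm1 were fractional in every library.

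Of the 18 metabolic and chaperone targets 15 rose and 3 fell, with a median of 0.24. Prps2, a nucleotide synthesis enzyme, stood at 89.3, 89.4 and 89.1 CPM at 24 h and at 203, 200 and 198 CPM at 48 h. Its log2 ratio of 1.17 (adjusted p = 5.01e-16) was the largest of the 49 targets. Srm and Odc1, enzymes of polyamine synthesis, rose by 0.66 and 0.46, and Nme1, a nucleoside diphosphate kinase, by 0.49. Those that fell were Tfrc, the transferrin receptor (-0.22), Impdh2, an enzyme of guanine nucleotide synthesis (-0.20), and Slc7a5, an amino acid transporter subunit (-0.07).

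Of the 13 cell cycle and translation targets 10 rose, 2 fell and E2f1 did not pass (log2 ratio -0.06, adjusted p = 0.223), with a median of 0.28. The D-type cyclin Ccnd2 rose from 11.7, 12.6 and 11.6 CPM at 24 h to 23.4, 24.0 and 21.8 CPM at 48 h (log2 ratio 0.94, adjusted p = 4.41e-09). Cdc25a, a phosphatase that activates cyclin-dependent kinases, rose by 0.49, Ccnd1 by 0.42 and Cdca7 by 0.36. E2f2 fell from 17.8 ± 2.52 to 12.5 ± 0.75 CPM (-0.52, adjusted p = 0.000184), and Tert, the catalytic subunit of telomerase, fell from 14.4 ± 0.91 to 10.4 ± 0.22 CPM (-0.48, adjusted p = 6.38e-05).

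**Figure D4:**
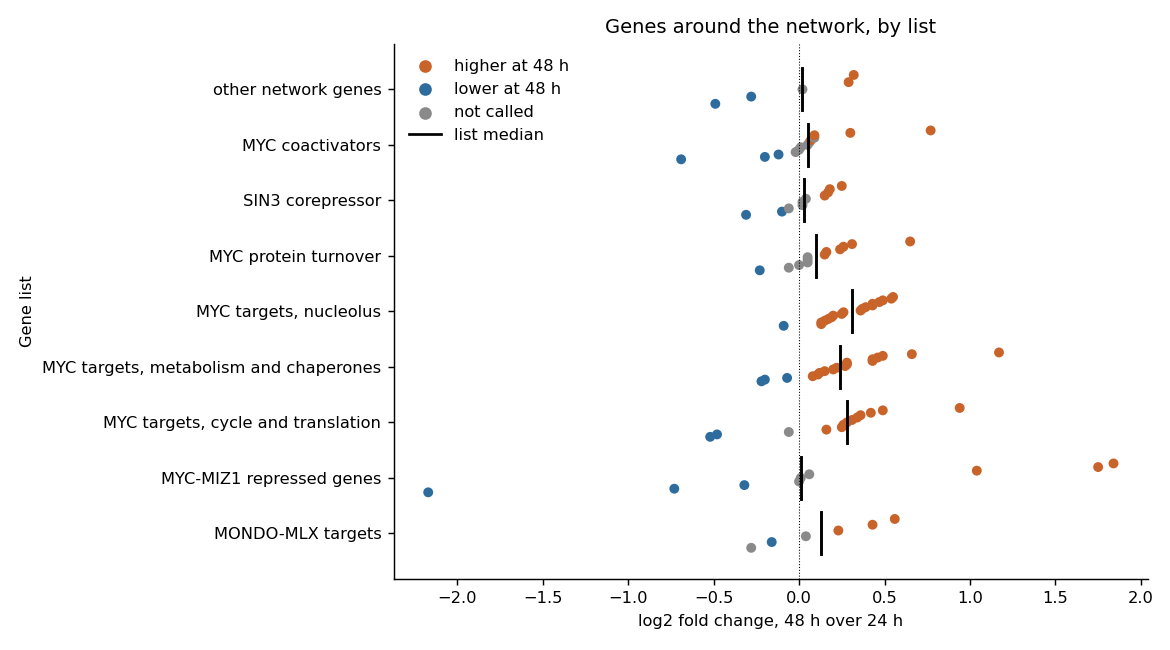
log2 fold change at 48 h over 24 h (x axis) of each tested gene in the 9 lists around the network (y axis), coloured by call, with the median of each list as a black bar. The medians of the 3 MYC target lists lie between 0.24 and 0.31, while those of the coactivator, corepressor and repressed-gene lists lie between 0.01 and 0.05.

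Of 9 genes listed as repressed by MYC, only some of them together with MIZ1, 3 rose (33.3%), 3 fell (33.3%) and 3 did not pass, with a median of 0.01. These shares are near the 30.9% and 31.9% of all tested genes. Cdkn1c, which encodes the cyclin-dependent kinase inhibitor p57, rose from 8.76 ± 0.78 to 31.2 ± 0.45 CPM (SD, n = 3; log2 ratio 1.84, adjusted p = 7.72e-13). Thbs1, an extracellular matrix glycoprotein, rose by 1.75, and Gadd45a, a stress-response gene, by 1.04. Ndrg1 fell by 77.8%, from 27.3 ± 0.68 to 6.05 ± 1.08 CPM (log2 ratio -2.17, adjusted p = 4.3e-12). Its relative Ndrg2 had a log2 ratio of -0.73, and Cdkn1b, the gene of the inhibitor p27, of -0.32. Of the 6 targets of MONDO-MLX dimers, Fasn and Acaca, enzymes of fatty acid synthesis, rose by 0.56 and 0.43, the arrestin-related Arrdc4 rose by 0.23, and Klf10 fell (-0.16). Txnip, the best known of these targets, was at 332 ± 8.86 and 340 ± 11.3 CPM (log2 ratio 0.04, adjusted p = 0.215), and Pklr, at 2.16 ± 0.13 and 1.78 ± 0.31 CPM, did not pass (adjusted p = 0.225).

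Of 13 coactivator genes 4 rose (30.8%), 3 fell (23.1%) and 6 did not pass, with a median of 0.05, beside 30.9% and 31.9% of all tested genes. The share that rose is near that background. Most of the 13 genes averaged 50 CPM or more, and among all genes that abundant 49.3% rose and 29.1% fell. Beside those, a smaller share of the coactivators rose. Bptf, a chromatin remodelling subunit that binds MYC, rose from 408 ± 10.1 to 696 ± 13.0 CPM (SD, n = 3; log2 ratio 0.77, adjusted p = 8.16e-15). Wdr5, a subunit of histone methyltransferase complexes that helps MYC onto chromatin, fell from 363 ± 9.66 to 225 ± 5.75 CPM (-0.69, adjusted p = 2.49e-13). Hcfc1 rose by 0.30, and Kat2a, a histone acetyltransferase, fell (-0.12). Ruvbl2 and Ruvbl1, paired ATPases, rose by 0.09 and 0.07 and lost the call when scaled by library size alone (adjusted p = 0.275 and 0.720). Ruvbl1 (adjusted p = 0.0299) also lost it with DESeq2 (0.0542) and without 24 h replicate 1 (0.0682), 24 h replicate 3 (0.127), 48 h replicate 2 (0.0552) or 48 h replicate 3 (0.133).

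Of the 10 SIN3 corepressor genes 4 rose, 2 fell and 4 did not pass, with a median of 0.03. The share that changed was near the 62.8% of all tested genes. All of them but Sap18 averaged 50 CPM or more, and among all genes that abundant 49.3% rose and 29.1% fell. Beside those, smaller shares of the SIN3 genes rose and fell. Sin3a, the scaffold that MXD proteins contact, rose by 0.25 (adjusted p = 1.75e-08). Rbbp7, Rbbp4 and Ncor1, whose products are not particular to SIN3, rose by 0.18, 0.17 and 0.15. The deacetylase gene Hdac2 fell from 281 ± 4.90 to 227 ± 4.94 CPM (SD, n = 3; log2 ratio -0.31, adjusted p = 3.42e-09). Sin3b was lower by less (-0.10, adjusted p = 0.0237), and its libraries overlapped between the times. It lost the call when 24 h replicate 2 (adjusted p = 0.0604), 24 h replicate 3 (0.124) or 48 h replicate 2 (0.142) was left out. The call was also lost with DESeq2 (0.0833) and at the threshold of 0.01. Of 12 genes that govern the stability of MYC proteins 6 rose, 1 fell (8.33%) and 5 did not pass, with a median of 0.10. Among all tested genes, the same 62.8% changed. All 12 averaged 50 CPM or more. Beside all genes that abundant, a similar share of the 12 rose and a smaller share fell. Usp28, a deubiquitinase that protects MYC from the ubiquitin ligase FBXW7, rose from 231 ± 8.39 to 361 ± 2.41 CPM (0.65, adjusted p = 5.24e-13), while Fbxw7 itself stood at 53.5 ± 0.79 and 53.4 ± 1.80 CPM (adjusted p = 0.947). Usp36 and Huwe1 rose by 0.31 and 0.24. Gsk3b, the kinase whose mark on MYC is read by FBXW7, fell (-0.23, adjusted p = 2.79e-06).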

How the data were processed

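Messenger RNA libraries of 6 samples, 3 per time point, were analysed. The authors deposited 1 table of estimated counts per gene, which were not scaled for depth or length. Per the submitters' processing notes the tools were cutadapt 1.9.1, STAR 2.5.2 and RSEM 1.3.0 and the build was GRCm38. The annotation, the strand setting and any filter are not given in the sources used here. RSEM splits a read that fits several genes, which can make counts fractional. Nothing in the labels ties the replicates to separate cultures, so p-values measure the spread between these samples, which may be technical.

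Counts were rounded, filtered with filterByExpr (minimum count 10) and scaled by TMM, and 48 h was compared with 24 h by edgeR's quasi-likelihood test (edgeR 4.0.16, R 4.3.3), with Benjamini-Hochberg adjustment over 14889 genes. Standard errors are the log2 fold change divided by the square root of F. The test was also run on simulated counts of 14629 genes, of which only 192 were changed. Of genes changed by 0.5 (log2) 66.7% were recovered, and of those changed by 1 84.8%, with 6 false calls. In the data 62.8% of genes changed, so these rates need not hold for this comparison. Symbols came from GENCODE M21 and matched 51633 identifiers. CPM per kb divides TMM-scaled CPM by the summed exon length.

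The members and lists were chosen with earlier results of these data known. Named genes were all members, the lists of at most 6 genes in full, and from each other list up to 4 called genes that rose and 3 that fell, by size. A few genes that meet this rule are not reported here but stay in the counts of their lists. Other genes are named as examples chosen after their values were seen. Alternatives were RLE, upper quartile and library-size scaling, other filters, unrounded counts, DESeq2 1.42.0, limma voom 3.58.1, a replicate block, a threshold of 0.01, other lengths and leaving out each library.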

Additional observations from a re-analysis of the deposited data

How the results depend on the processing

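Over 16 alternatives, the 160 values of the members kept direction and call in 154 cases, lost the call in 5 (all of them Mxd3) and gained it in 1 (Mlx), and none reversed. The count of changed genes stayed between 7810 (threshold 0.01) and 9792 (no filter on low counts). Members lower at 48 h went from 2 to 1 with DESeq2 and with the threshold of 0.01, and ranged from 1 to 2 when 1 library was left out. Among 848 values of named network genes, 15 lost the call and 4 reversed: Bmyc was at -0.04 with library size only, at -0.05 and -0.03 without 24 h replicate 3 and without 48 h replicate 2, and between -0.05 and 0.07 over the fits that left out 1 library, and Txnip was at -0.02 with library size only. The cause was not tested. With the replicate block 9235 genes changed, and no member's call did. Deviations of same-numbered libraries from their group means correlated at -0.05, -0.04 and -0.01, which gives no sign of pairing by number. With 3 libraries per group these values cannot settle whether same numbers mark paired cultures, and the labels do not say.

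The shares depend on the length used, by construction, while every difference between the times kept its direction. Without division by length, at 24 h and 48 h, Mycn held 78.5% and 86.4% of the family, Myc 12.7% and 8.94%, and Mycl 8.77% and 4.69%. Mnt held 47.6% and 57.0% of the antagonists, Mxi1 25.5% and 17.2%, Mxd4 10.4% and 13.0%, Mxd1 8.91% and 7.38%, and Mxd3 7.59% and 5.36%. The ratio of antagonists to the family was 0.652 and 0.338. With the longest transcript as length, Mycn held 78.7% and 86.2%, Myc 14.6% and 10.2%, and Mycl 6.71% and 3.58%. Mnt held 43.3% and 53.3%, Mxi1 21.1% and 14.7%, Mxd3 18.2% and 13.2%, Mxd4 9.40% and 12.1%, and Mxd1 7.98% and 6.78%. Mycs had too few counts to test at this depth.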

Other observations

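The tested genes whose pattern over the 6 libraries was most like that of each MYC family gene were found by the Euclidean distance between log2 CPM values centred per gene. Since the libraries form 2 groups, this likeness rests mainly on the size of the change. Nearest to Mycn were Aldh1a2 (distance 0.076), which makes retinoic acid, Sox1 (0.086), a neural transcription factor, and Tfe3 (0.096), a lysosomal and metabolic regulator, with log2 fold changes of 1.31, 1.31 and 1.25. Aldh1a2 was far less abundant, at 1.37 CPM at 24 h and 3.41 at 48 h, while Tfe3 went from 79.5 to 189 CPM. Nearest to Myc were Gpatch4 (0.045), Tfdp2 (0.060), a dimerization partner of E2F factors, and Six4 (0.060), a homeobox gene. Nearest to Mycl were Ptpn1 (0.017), a tyrosine phosphatase, Sall4 (0.019), a pluripotency regulator, and Clint1 (0.020), all with log2 fold changes of 0.22 or 0.23.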
